A study of Mus musculus with 8 samples.

Results

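The genes described here are the 31 semaphorins, plexins and neuropilins of the mouse, taken by name from a list of 20 semaphorins, 9 plexins and 2 neuropilins. All 31 were among the 41079 genes of the count tables, and all 31 were among the 20581 genes that passed the low-count filter. They were measured by RNA-seq of total RNA, depleted of ribosomal RNA, in organ of Corti, the strip of hair cells and supporting cells that senses sound in the cochlea. The tissue was dissected from newborn mice (P0). The 4 libraries labelled wildtype were compared with 4 libraries labelled Prox1 knockout, whose genotype is given as Emx2-cre with floxed Prox1, so that Cre is made where the Emx2 driver is active. Strain, sex, the number of animals per library and any Cre or floxed allele in the wildtype group are not given in the labels.

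Semaphorins are guidance ligands that steer growing axons, vessels and migrating cells, usually by causing the cell's leading edge to collapse. Class 3 members are secreted and bind a neuropilin, which holds the ligand while a class A plexin carries the signal inward. The other vertebrate classes are mostly anchored in the membrane and bind plexins directly, and the plexin tail acts on small GTPases that control adhesion and actin. In the developing cochlea, Sema3f acting on Nrp2 is known for keeping spiral ganglion fibres near the inner hair cells, and Sema5b acting on Plxna1 is known for trimming their branches.

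The libraries held between 29908965 and 42318233 counts, and each library labelled knockout held fewer than each wildtype library. Prox1 itself, the targeted gene, went against its label, with 106 to 115 CPM (counts scaled to the library size) in the wildtype libraries and 134 to 147 CPM in the knockout-labelled libraries, a log2 fold change of 0.33 ± 0.05 (SE). Gene-level counts do not show whether the floxed part of the transcript was lost, and every direction below is that of the libraries as labelled. Hair cell markers were present (summed level 757 to 910 CPM in wildtype), as were supporting cell markers (4166 to 4665 CPM), but the dissected tissue also held other cells. Markers of neurons, glia, mesenchyme, endothelium, macrophages and red cells were counted too, and the cartilage list summed to 13562 to 15810 CPM in wildtype. That sum came mostly from the collagens Col2a1 (wildtype mean 10756 CPM), Col9a1 (2200 CPM) and Col11a2 (1852 CPM). Others of the list were far lower, with wildtype means of 79.4 CPM for Matn1, 7.20 for Acan, 2.35 for Hapln1 and 0.22 for Matn3. The sum is therefore no measure of the amount of cartilage. The stria vascularis and melanocyte list had the lowest median log2 fold change of the marker lists, at -1.30, its summed level lying between 167 and 247 CPM in wildtype, against between 133 and 159 CPM in the knockout-labelled libraries. All 10 of its tested genes had a log2 fold change below 0, against 49.998% of all tested genes. Wildtype libraries 1 and 3 were highest in that sum. Separate animals behind the libraries are not stated, so each p-value reflects only how far these libraries scatter, and that scatter may be technical.

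In edgeR's quasi-likelihood test, adjusted for all tested genes at 0.05, no semaphorin, plexin or neuropilin was called, where 0.0923% of all tested genes were called (19 of 20581). At an unadjusted p under 0.05, 5 of the 31 genes were lower in the knockout-labelled libraries (16.1%), against 2.78% of all tested genes, and 1 of 31 was higher (3.23%), against 4.76%. The 5 lower genes were Sema5a, Nrp2, Plxnd1, Sema3b and Nrp1, and the higher one was Sema5b. The log2 fold changes of the 31 genes ran from -0.30 to 0.19, with 18 below 0 and 13 above and a median of -0.04, while 49.998% of all tested genes lay below 0. DESeq2 called 1 of the 31 genes, Sema5a. The authors' deposited table, also made with DESeq2, held the same call and is not a second result. In it 0.45% of genes with an adjusted p were called (86 of 19111).

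Counts of these genes ranged from 61 to 16176 per library. For all 31 genes the 95% interval of the fold change, not adjusted for the number of genes, lay inside 1.5-fold in either direction. Of all tested genes, 67.2% had an interval inside 1.5-fold. The widest interval belonged to Sema4a, from -0.42 to 0.43 on the log2 scale, and the next to Sema3e, from -0.53 to 0.28.

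**Figure D1:**
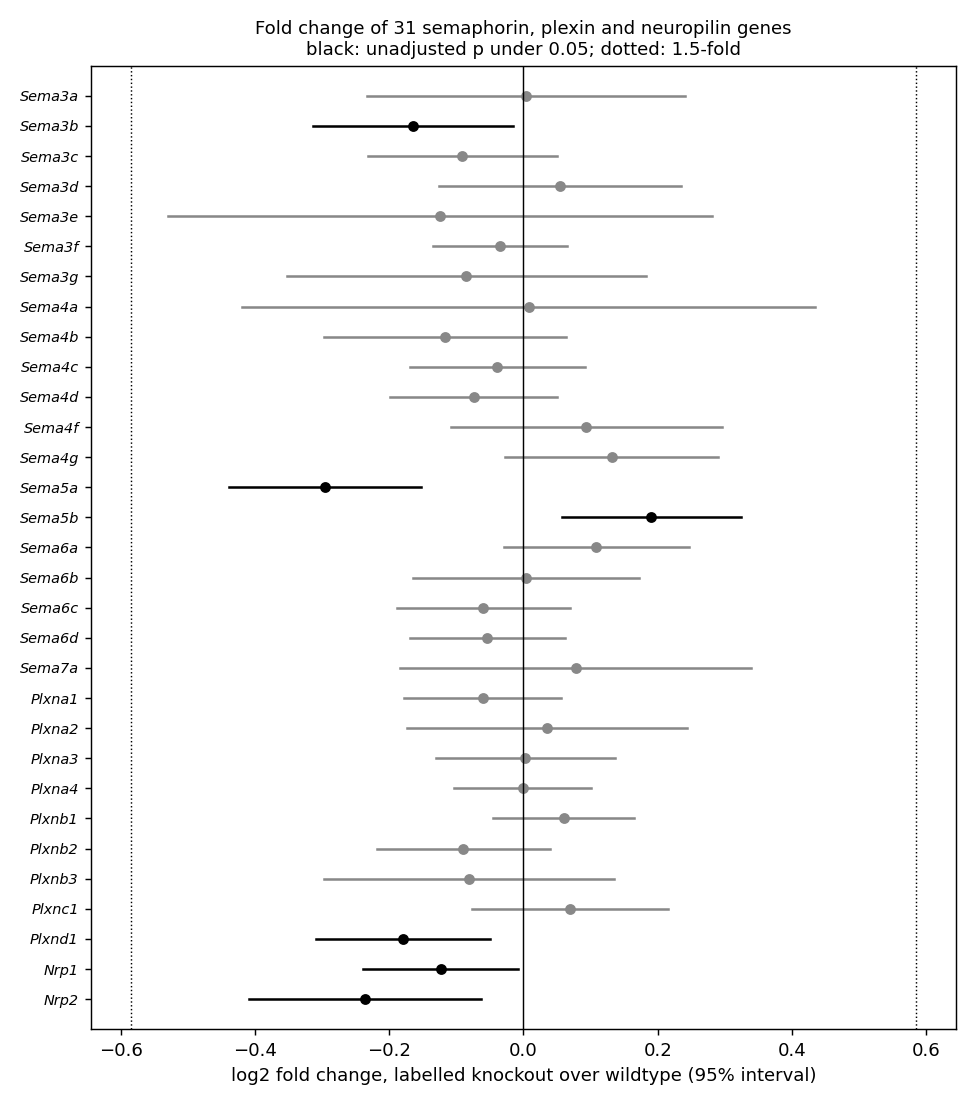
Log2 fold change of the 31 genes, knockout-labelled libraries over wildtype (x axis), with the 95% interval of edgeR's fit, by gene (y axis); black marks an unadjusted p under 0.05 and dotted lines mark 1.5-fold. Sema5a lies lowest at -0.30 and Sema5b highest at 0.19, and no interval reaches the dotted lines.

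The class 5 semaphorins, Sema5a and Sema5b, are membrane proteins set apart by thrombospondin repeats beside the semaphorin domain, and they were the pair at the ends of the range. Sema5a had 177, 163, 171 and 151 CPM in the wildtype libraries 1 to 4, and 133, 122, 147 and 137 CPM in knockout-labelled libraries 1 to 4. Every wildtype library lay above every library labelled knockout, the closest being wildtype library 4 and knockout-labelled library 3. Group means were 165 ± 11.3 CPM and 135 ± 10.03 CPM (SD, n = 4 per group), a 1.23-fold excess in wildtype. The log2 fold change came to -0.30 ± 0.07 (SE), with a 95% interval from -0.44 to -0.15. The Benjamini-Hochberg adjusted p over all tested genes was 0.281 by edgeR's quasi-likelihood test. In the authors' deposited table the log2 fold change was -0.30 with an adjusted p of 0.024 by DESeq2, so the call differs between the tools while the size does not. Sema5a was the single one of the 31 genes whose groups did not overlap downwards, against 1.62% of all tested genes, and none of the 31 was separated upwards, against 2.07%.

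Sema5b, the other class 5 gene, pointed the opposite way. Its values were 51.6, 51.5, 49.4 and 57.8 CPM in the wildtype libraries and 63.6, 58.5, 57.0 and 61.0 CPM in the knockout-labelled libraries. Wildtype library 4 exceeded knockout-labelled library 3, so the groups overlapped by 1 library on each side. Group means were 52.6 ± 3.60 CPM and 60.0 ± 2.91 CPM (SD, n = 4 per group), 1.14-fold higher in the knockout-labelled libraries, with a log2 fold change of 0.19 ± 0.06 (SE) and an adjusted p of 0.57 by edgeR.

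Within each library the ratio of Sema5a to Sema5b counts does not depend on the scaling of that library. It was 3.43, 3.16, 3.47 and 2.61 in wildtype and 2.09, 2.09, 2.57 and 2.25 in the knockout-labelled libraries. The ratios of the groups did not overlap, though wildtype library 4 came close to knockout-labelled library 3. The pair was chosen for its opposite directions, so this ratio is a description with no test.

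**Figure D2:**
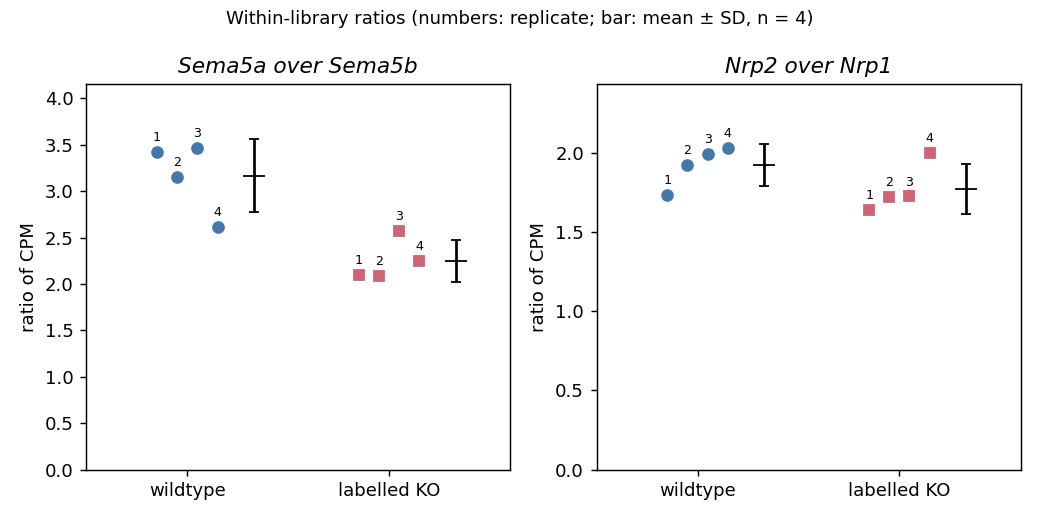
Ratio of CPM within each library (y axis) for Sema5a over Sema5b (left) and Nrp2 over Nrp1 (right), by group (x axis), with replicate numbers and the mean ± SD of 4 libraries. The Sema5a ratio spans 2.61 to 3.47 in wildtype and 2.09 to 2.57 in the knockout-labelled libraries. The neuropilin ratios overlap through knockout-labelled library 4 alone.

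The start regions of this pair are printed because these genes stood at opposite ends of the fold changes. Each window runs from 250 bases before to 50 bases after the RefSeq start, on GRCm38.p6, an older build than the GRCm39 named for the counts. Sema5a lies on the plus strand at chr15:32244563-32244862 and Sema5b on the plus strand at chr16:35541112-35541411. Capitals mark each CG dinucleotide, the site of DNA methylation, which reads the same on both strands.
Sema5a: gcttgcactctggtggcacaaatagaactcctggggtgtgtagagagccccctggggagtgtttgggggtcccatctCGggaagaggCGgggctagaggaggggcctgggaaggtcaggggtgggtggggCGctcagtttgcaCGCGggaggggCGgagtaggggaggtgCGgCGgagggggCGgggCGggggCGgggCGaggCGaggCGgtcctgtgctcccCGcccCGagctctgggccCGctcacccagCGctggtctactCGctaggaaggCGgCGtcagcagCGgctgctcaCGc
Sema5b: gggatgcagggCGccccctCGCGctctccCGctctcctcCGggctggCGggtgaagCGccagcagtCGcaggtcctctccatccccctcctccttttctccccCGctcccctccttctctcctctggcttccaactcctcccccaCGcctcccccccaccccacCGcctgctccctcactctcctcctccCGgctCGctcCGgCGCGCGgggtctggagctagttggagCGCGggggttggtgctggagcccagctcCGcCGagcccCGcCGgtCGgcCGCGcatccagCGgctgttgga
The Sema5a window holds 23 CG and is 71.3% G or C, and 21.5% of the 32851 RefSeq windows of that length hold at least as many CG. The Sema5b window holds 27 CG and is 73.0% G or C, and 15.5% of windows hold at least as many. Both are thus CG-rich starts, against a median of 7 CG in all windows and 15 in the 37 windows found for 26 of the 31 genes. Nothing measured here bears on the use of these regions.

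Stria genes and Sema5a shared a direction between groups, but not in every library. The mean log2 level of the stria and melanocyte list was 1.38 in wildtype library 4 and 1.62 in knockout-labelled library 1. Sema5a had 151 and 133 CPM there. Within wildtype both levels fell in the order of libraries 1, 3, 2 and 4. The list fell from 3.15 to 1.38 and Sema5a from 177 to 151 CPM. In the knockout-labelled libraries the orders differed, the list being highest in library 1 and Sema5a, at 147 CPM, in library 3. All 10 tested genes of the list lay below 0, against 49.998% of all tested genes. Of the 10, 8 had an unadjusted p under 0.05, against 2.78%. Over all marker lists, 88 of 110 tested genes lay below 0 and 24 were lower at that p. Sema5a had a log2 fold change of -0.16 with the mean level of the stria list as a covariate. It was -0.22 without wildtype libraries 1 and 3. Sema5a passed the threshold by edgeR in neither fit. With the stria level as a covariate no member was called, as in the fit without it, and Prox1, at 0.29, did not pass the threshold either. Because the stria level went largely with the group, the lack of calls in that fit decides nothing. With the stria level as a covariate, Sema5b had a log2 fold change of 0.11. Whether the stria genes and Sema5a are linked was not tested. In bulk RNA, fewer cells of a type and less RNA per cell cannot be told apart.

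The neuropilins, the ligand-binding co-receptors for class 3 semaphorins, were both lower in the knockout-labelled libraries without passing the threshold. Nrp2, the receptor of Sema3f, had 160, 157, 175 and 177 CPM in wildtype, against 131, 138, 131 and 167 CPM in the knockout-labelled libraries. Knockout-labelled library 4 stood within the wildtype values and the other 3 stood below all of them. The share of counts in long noncoding RNA genes divided the libraries the same way, at 5.48 to 5.996% in wildtype, 5.85% in knockout-labelled library 4 and 6.58, 6.65 and 6.83% in the other 3, and its part in the values of Nrp2, Sema6a and Sema4g was not tested. Group means were 167 ± 10.3 CPM and 142 ± 17.4 CPM (SD, n = 4 per group), with a log2 fold change of -0.24 ± 0.08 (SE), a 95% interval from -0.41 to -0.06 and an adjusted p of 0.581 by edgeR. Without knockout-labelled library 4 it was -0.33, with an adjusted p of 0.0717 by edgeR, and 8 of the 31 genes were then separated downwards and 2 upwards, against 5.97% and 7.43% of all genes tested in that fit. The 8 were Sema5a, Nrp2, Nrp1, Plxnd1, Sema3b, Sema3c, Sema4c and Sema4d, and the 2 were Plxnb1 and Sema4g. Without wildtype library 2, 4 genes were separated downwards, Sema5a, Plxnd1, Nrp1 and Sema3b, against 5.14% of all genes in that fit. A gene whose groups met only at the library left out becomes separated by that choice alone, so these counts are no test. The fit of Nrp2 without knockout-labelled library 4 rests on the same choice.

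Nrp1, which binds Sema3a and also the vascular growth factor VEGF, had 92.3, 81.5, 87.6 and 87.3 CPM in wildtype, against 80.0, 80.4, 75.9 and 83.7 CPM in the knockout-labelled libraries. Only wildtype library 2 lay among the values of the other group. Its log2 fold change came to -0.12 ± 0.05 (SE), from 87.2 ± 4.44 to 80.0 ± 3.24 CPM (SD, n = 4 per group), with an adjusted p of 0.647 by edgeR. The ratio of Nrp2 to Nrp1 ran from 1.73 to 2.03 in wildtype. It was 1.64, 1.72, 1.72 and 2.00 in knockout-labelled libraries 1 to 4. The groups overlapped through knockout-labelled library 4 alone, the others of its group lying below every wildtype library.

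**Figure D3:**
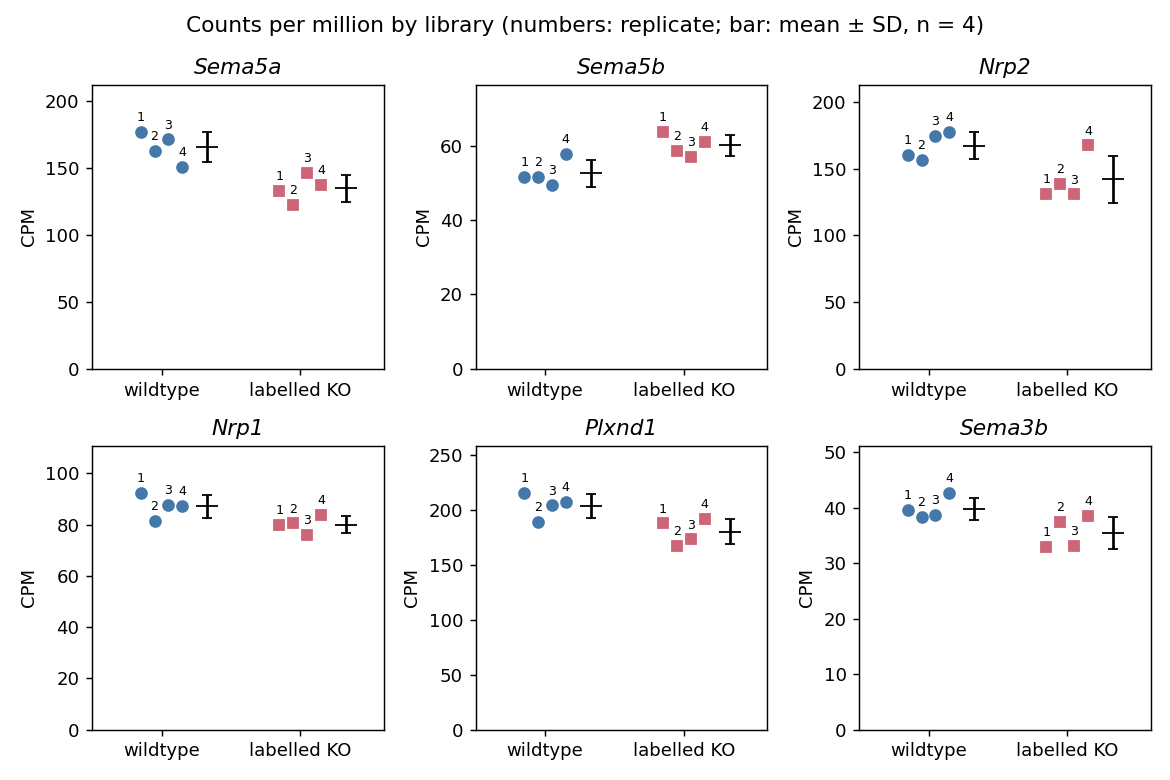
CPM (y axis, from 0) of the 6 genes with an unadjusted p under 0.05, by group (x axis), each point a library with its replicate number and the bar the mean ± SD of 4 libraries. Only in Sema5a do the groups stay apart, from 151 to 177 in wildtype and from 122 to 147 CPM in the knockout-labelled libraries, and in Nrp2 knockout-labelled library 4 lies among the wildtype libraries.

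Among the 7 class 3 semaphorins, the secreted ligands of the neuropilins, 0 were called by edgeR or DESeq2, and 1, Sema3b, had an unadjusted p under 0.05. Their log2 fold changes lay between -0.16 and 0.05, 5 below 0 and 2 above. Sema3b had 39.6, 38.4, 38.7 and 42.7 CPM in wildtype, against 33.001, 37.4, 33.1 and 38.6 CPM in the knockout-labelled libraries. Its groups met only at knockout-labelled library 4, which exceeded wildtype library 2. Its log2 fold change of -0.16 ± 0.07 (SE) had an adjusted p of 0.647 by edgeR. Sema3f, the ligand paired with Nrp2 in cochlear innervation, had the smallest SE of the 31 genes. It ran from 89.2 to 94.99 CPM in wildtype, against from 87.2 to 92.2 CPM in the knockout-labelled libraries, with a log2 fold change of -0.03 ± 0.05 (SE) and a 95% interval from -0.13 to 0.06.

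Sema3a, the founding axon-repelling member, had 55.8 ± 6.92 CPM in wildtype, against 56.0 ± 8.34 CPM in the knockout-labelled libraries (SD, n = 4 per group). Sema3c, which attracts some axons and neural crest cells, had 74.9 ± 2.48 and 70.3 ± 6.39 CPM, and Sema3d 45.4 ± 4.97 and 47.2 ± 3.79 CPM. Sema3e, which signals through Plxnd1 without a neuropilin, varied most between wildtype libraries, with 32.9, 38.4, 18.6 and 30.8 CPM, a coefficient of variation of 27.6%. In the knockout-labelled libraries it had 33.2, 25.3, 30.6 and 21.9 CPM, and the groups overlapped throughout. Sema3g was the lowest of the class, at 8.84 ± 0.94 and 8.34 ± 1.19 CPM.

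The class A plexins, which carry the signal of class 3 and class 6 semaphorins, were all close to 0. Their 4 log2 fold changes lay between -0.06 and 0.03. The smallest p of the family belonged to Plxna1, at 278, 302, 292 and 280.2 CPM in wildtype, against 281, 282, 286 and 256 CPM in the knockout-labelled libraries. Knockout-labelled library 4 was the lowest value and the rest were mixed, with a log2 fold change of -0.06 ± 0.05 (SE) and an adjusted p of 0.745 by edgeR. Plxna4 had 149 CPM in both groups (SD 2.95 in wildtype and 6.14 in the knockout-labelled libraries), and the 95% interval of its log2 fold change ran from -0.10 to 0.10. Plxna3 had 68.9 ± 1.76 and 69.0 ± 5.58 CPM. Plxna2 had 104, 149, 125 and 138 CPM in wildtype, against 125, 142, 139 and 123 CPM in the knockout-labelled libraries, with wildtype library 1 lowest and wildtype library 2 highest of all 8.

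The class B plexins, receptors of class 4 semaphorins that can also engage the receptor kinases Met and Erbb2, showed 2 members below 0 and 1 above, none called. Plxnb2 had 394, 372, 430.5 and 389 CPM in wildtype, against 379.7, 369, 350.3 and 391 CPM in the knockout-labelled libraries. Wildtype libraries 1 and 3 lay above all the knockout-labelled libraries and wildtype libraries 2 and 4 lay among them, with a log2 fold change of -0.09 ± 0.06 (SE). Plxnb1 had 204 ± 3.54 and 213 ± 9.48 CPM, and Plxnb3, also described as a receptor of Sema5a, had 26.3 ± 3.94 and 24.9 ± 1.58 CPM (SD, n = 4 per group).

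Plxnd1, the receptor of Sema3e and best known from blood vessels, had 215, 189, 204 and 207 CPM in wildtype, against 188, 168, 173 and 191 CPM in the knockout-labelled libraries. The groups met only at wildtype library 2, which lay below knockout-labelled library 4. Group means were 204 ± 11.1 CPM and 179.9 ± 11.4 CPM (SD, n = 4 per group), an excess of 1.13-fold in wildtype, with a log2 fold change of -0.18 ± 0.06 (SE), a 95% interval from -0.31 to -0.05 and an adjusted p of 0.573 by edgeR. Plxnc1, the receptor of Sema7a, had 21.6 ± 1.04 and 22.7 ± 1.16 CPM.

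Most vessel and mesenchyme markers, like Plxnd1 and the neuropilins, had a log2 fold change below 0. Of 10 endothelial markers, 9 had a log2 fold change below 0, against 49.998% of all tested genes. Of the 9, 4 had an unadjusted p under 0.05, against 2.78%. Emcn lay above 0 at 0.20, also with an unadjusted p under 0.05, against 4.76% of all tested genes higher. The summed endothelial level ran from 346 to 399 CPM in wildtype, against from 351 to 373 CPM in the knockout-labelled libraries. Emcn was the largest part of that sum, at 106 ± 8.06 and 121 ± 16.4 CPM (SD, n = 4 per group). The sum thus understates the fall of the other endothelial markers. Of 12 markers of periotic mesenchyme, 11 lay below 0, and their sum ran from 5561 to 6713 CPM and from 4706 to 5650 CPM. With the mean level of the mesenchyme list as a covariate, the log2 fold change was -0.08 for Plxnd1, -0.04 for Nrp1 and -0.16 for Nrp2. Other lists lay below 0 as well: all 6 pericyte markers (2 with an unadjusted p under 0.05), all 6 tested cartilage markers and all 6 red cell markers (3 with an unadjusted p under 0.05, median -0.46). The shares of all tested genes for these counts are again 49.998% and 2.78%. Neuron markers overlapped, from 495 to 738 CPM and from 542 to 699 CPM, as did Schwann and satellite glia markers, from 1019 to 1136 CPM and from 979 to 1098 CPM. With the stria, neuron and sex scores as covariates Nrp2 was -0.32, -0.28 and -0.35. In those fits Plxnd1 was -0.135, -0.18 and -0.22, and Nrp1 was -0.08, -0.13 and -0.16. None was called in these fits. Endothelial, pericyte, cartilage and red cell levels were not fitted as covariates. The part of these cell types in the receptor values was not tested.

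Class 4 semaphorins, membrane ligands of the class B plexins, had 3 members below 0 and 3 above, and none was called. The smallest p belonged to Sema4g, at 40.8, 40.6, 38.6 and 39.0 CPM in wildtype, against 43.5, 46.9, 46.5 and 37.2 CPM in the knockout-labelled libraries. Of the latter, 3 libraries lay above all wildtype values and library 4 lay below them, with a log2 fold change of 0.13 ± 0.07 (SE) and an adjusted p of 0.653 by edgeR. Sema4d, known from immune cells and as a ligand of Plxnb1, had 48.1 ± 1.03 and 45.7 ± 2.91 CPM (SD, n = 4 per group). Sema4b had 69.7 ± 7.43 and 64.3 ± 5.49 CPM, Sema4c, which acts through Plxnb2, had 78.5 ± 3.47 and 76.4 ± 5.61 CPM, and Sema4f had 26.1 ± 1.94 and 27.9 ± 3.72 CPM. Sema4a was the least counted of the 31 genes, at 2.38 ± 0.40 and 2.40 ± 0.51 CPM.

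Class 6 semaphorins are membrane ligands of class A plexins. Sema6a had 274, 301, 263 and 269 CPM in wildtype, against 301, 312, 312 and 269 CPM in the knockout-labelled libraries. Knockout-labelled library 4 lay with the wildtype libraries and wildtype library 2 with the others, and the means of 277 ± 16.9 and 298 ± 20.4 CPM (SD, n = 4 per group) gave a log2 fold change of 0.11 ± 0.06 (SE) and an adjusted p of 0.667 by edgeR. Sema6b had 33.7 ± 1.97 and 33.8 ± 3.26 CPM, Sema6c 44.8 ± 1.52 and 43.0 ± 2.67 CPM, and Sema6d, a ligand of Plxna1, 109 ± 6.11 and 105 ± 3.88 CPM.

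Sema7a, held at the membrane by a lipid anchor and able to act through integrins as well as Plxnc1, had 20.2, 24.5, 16.0 and 20.8 CPM in wildtype, against 23.1, 24.0, 20.1 and 18.9 CPM in the knockout-labelled libraries. The groups overlapped, and the log2 fold change came to 0.08 ± 0.12 (SE), with a 95% interval from -0.18 to 0.34 and an adjusted p of 0.861 by edgeR.

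To compare levels between genes, CPM was divided by the merged exon length of each gene in kb. On this scale receptors led: Plxnb2 was highest in wildtype at 51.3 ± 3.18 CPM per kb (SD, n = 4), followed by Plxna1 at 31.8 ± 1.24, Sema6a at 31.5 ± 1.92, Plxnd1 at 27.9 ± 1.52 and Plxnb1 at 21.3 ± 0.37. Plxna1 and Sema6a differed by less than their spread. Sema3f led the secreted ligands at 17.6 ± 0.54 CPM per kb, close to Sema4c at 17.1 ± 0.76. Nrp2 at 14.1 ± 0.87 stood above Nrp1 at 8.91 ± 0.45 CPM per kb. Sema5a, whose merged exons reach 18.7 kb, came to 8.85 ± 0.60 CPM per kb, within the spread of Nrp1, Plxna3 and Sema6b, and Sema5b to 7.43 ± 0.51.

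At the low end were Sema3e at 3.25 ± 0.90, Plxnc1 at 2.59 ± 0.12, Sema3g at 1.95 ± 0.21 and Sema4a at 0.44 ± 0.07 CPM per kb (SD, n = 4). In the knockout-labelled libraries Plxnb2 was again highest, at 48.2 ± 2.25 CPM per kb, and Sema6a came next at 34.0 ± 2.33, with Plxna1 at 30.5 ± 1.54. Sema5b at 8.48 ± 0.41 CPM per kb lay above Sema5a at 7.22 ± 0.54 there, whereas in wildtype Sema5a lay above Sema5b. Merged lengths count every annotated exon, so a gene with long exons that are not used in this tissue is understated.

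**Figure D4:**
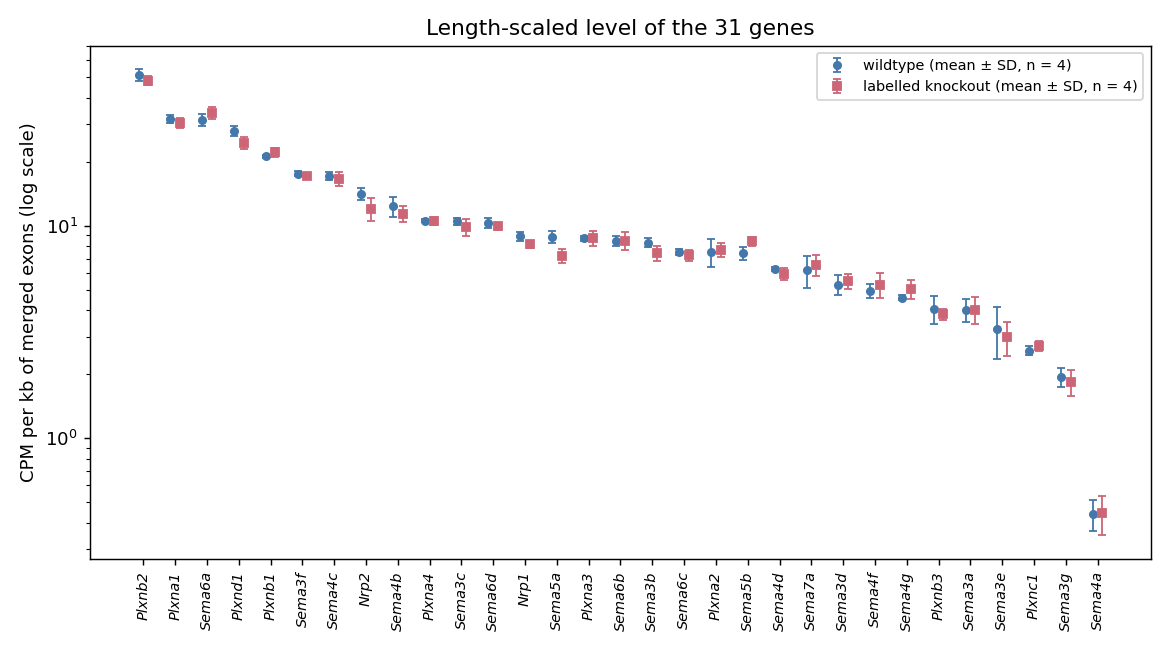
CPM per kb of merged exons (y axis, log scale) for each of the 31 genes (x axis), ordered by the wildtype mean, with mean ± SD of 4 libraries per group. The range runs from 51.3 for Plxnb2 to 0.44 for Sema4a in wildtype, and the groups nearly coincide for most genes.

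Added up, the 31 genes held between 3027 and 3095 CPM in the wildtype libraries and between 2934 and 2988 CPM in the knockout-labelled libraries. These sums did not overlap, and are given without a test because the genes were chosen with earlier results known. By family the sums of the neuropilins ran from 238 to 265 and from 207 to 251 CPM, and those of the class 5 semaphorins from 209 to 228 and from 181 to 203 CPM. The class 6 sums ran from 448 to 496 and from 438 to 503 CPM.

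The genes that carry the signal inside the cell were described by a list of 80, of which 79 passed the low-count filter and Timd2, a receptor of Sema4a, did not. None was called by edgeR or DESeq2. Before adjustment, 2 of 79 were higher and 3 lower at a p under 0.05 by edgeR, near the 4.76% and 2.78% of all tested genes. The median log2 fold change was -0.04, with 60 genes below 0 and 19 above, where 49.998% of all tested genes lay below 0. Among 14 co-receptors and partners the smallest p belonged to Kdr, a VEGF receptor that is also an endothelial marker, at 43.3 ± 3.82 and 38.0 ± 3.31 CPM (SD, n = 4 per group) and a log2 fold change of -0.19 ± 0.08 (SE).

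Of 17 GTPases, 16 lay below 0, against 49.998% of all tested genes. The exception was Rnd3, a relative of Rnd1 named after its values were seen, at 72.3 ± 6.37 and 81.2 ± 3.13 CPM (SD, n = 4 per group), with a log2 fold change of 0.17 ± 0.06 (SE) and an adjusted p of 0.622 by edgeR. Rnd1, a small GTPase that binds plexin tails, had 0.67, 0.78, 0.64 and 1.08 CPM in wildtype, against 0.17, 0.27, 0.36 and 0.66 CPM in the knockout-labelled libraries, where library 4 alone reached the wildtype values. Its log2 fold change of -1.11 ± 0.37 (SE) rests on 5 to 36 counts per library and had an adjusted p of 0.576 by edgeR. Of 16 exchange factors and adaptors the smallest p belonged to Sh3bp1, a GTPase-activating protein linked to Sema3e signalling (-0.09 ± 0.06). Of 19 kinases and phosphatases it belonged to Fes, a kinase bound by Plxna1, at 9.76 ± 0.74 and 11.3 ± 0.77 CPM (0.21 ± 0.09). Of 13 cytoskeletal effectors it belonged to Vcl, a protein of focal adhesions, at 155 ± 4.79 and 143 ± 4.80 CPM (-0.11 ± 0.05). Vcl and Tln1, the talin that links integrins to actin, were the pathway genes whose groups did not overlap, both downwards, 2 of 79 against 1.62% of all tested genes. Vcl ran from 149.9 to 161 CPM and from 138 to 149 CPM, and Tln1 from 346 to 371 CPM and from 327 to 344 CPM.

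**Figure D5:**
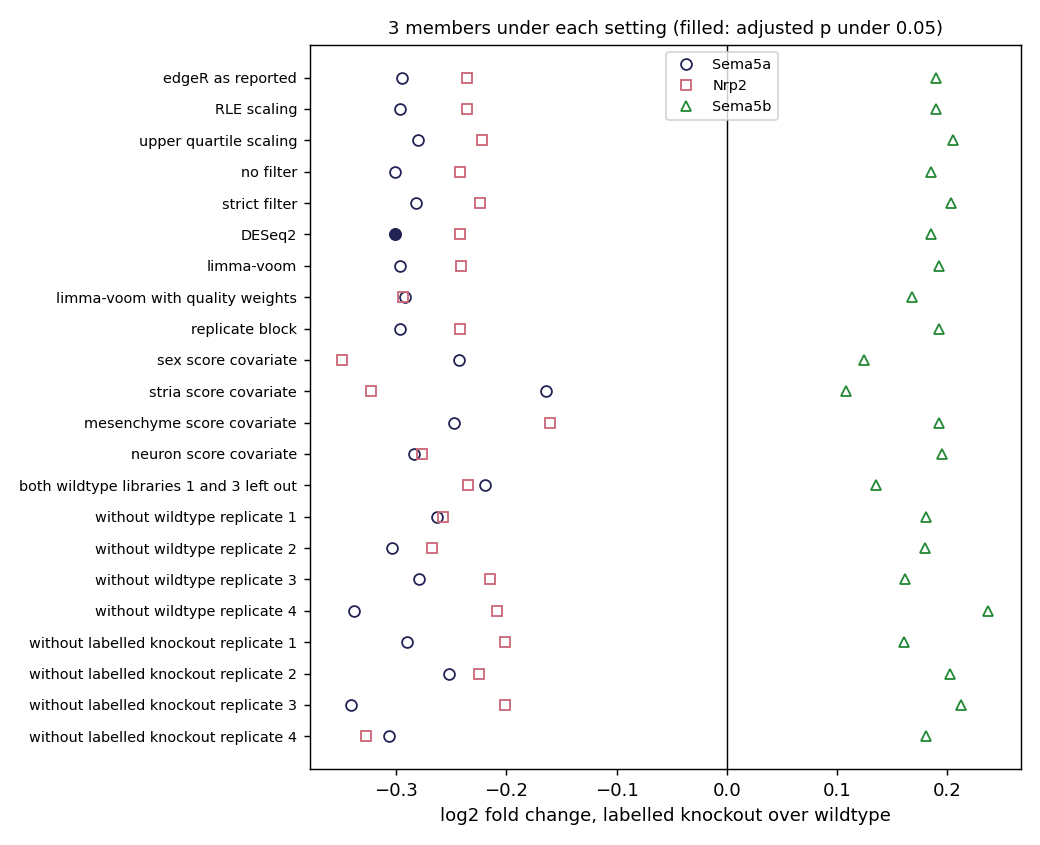
Log2 fold change of Sema5a, Nrp2 and Sema5b (x axis) under each processing setting (y axis); filled symbols mark an adjusted p under 0.05. Sema5a runs from -0.34 to -0.16 and is filled with DESeq2 alone, Nrp2 runs from -0.35 to -0.16, and Sema5b from 0.11 to 0.24.

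In the annotation some members share exon bases with another gene: Plxnb1 with Gm7628 on the opposite strand, which reached at most 2.66 CPM against at least 199 CPM of Plxnb1, and Plxna1, Plxna4 and Sema4c with antisense or noncoding genes that are not listed by that name in the tables. Whether the counting used strand is not given in the sources used here, so reads from both strands of such bases cannot be told apart.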

How the data were processed

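Per the labels' protocols, RNA was purified by Qiagen RNeasy and libraries were built with NEBNext Ultra II once ribosomal RNA had been removed. GRCm39, DESeq2, featureCounts, HISAT2 2.2.1, cutadapt 4.3 and FastQC 0.12.1 are listed in the submitters' processing notes. Annotation and strand setting: not given in the sources used here. Gene counts were deposited raw, without normalization. The authors' DESeq2 table, per the file headers, holds log2 fold changes, a Wald score, p-values and adjusted p-values.

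From the counts, edgeR 4.0.16 (R 4.3.3) was run on all 8 libraries with genotype as the single factor: filterByExpr (minimum count 10), TMM scaling, the quasi-likelihood test across all genes and Benjamini-Hochberg adjustment at 0.05. The SE is the log2 fold change divided by the square root of F, and 95% intervals use the t distribution of the fit. Prox1 differed between groups by an exact permutation test (two-sided, p = 0.0286, 70 assignments, n = 4 in each, and no smaller p is possible here). Lengths are merged exons of GENCODE M21 (GRCm38), used only to scale levels, and all 31 genes matched by symbol. Promoter windows are RefSeq's. Alternatives were RLE and upper quartile scaling, no filter and a filter of 50 counts in 4 libraries, DESeq2 1.42.0, limma-voom (limma 3.58.1) with and without quality weights, a replicate block, sex, stria, mesenchyme and neuron scores as covariates, each library left out, wildtype libraries 1 and 3 left out, and a threshold of 0.1. Same-group libraries differed by more than sampling noise in every pair (chi-square per degree of freedom at least 10.7). The fit was also run on simulated counts with planted changes, and how many small changes it recovered is not reported here. Members, lists and the rule for named genes (each gene with non-overlapping groups, and the smallest p of each family or role, with every library's value) were chosen with earlier results of these data known. Nrp1, Sema5b, Sema3e and Plxna2 are given by library after their values were seen.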

Additional observations from a re-analysis of the deposited data

Results flagged for a closer look

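In 64 groups of 4 libraries (31 genes and Prox1, each in both genotypes), 3 had a library whose gap to the nearest of the others exceeded Dixon's critical value for 4 samples. Chance gives about 1 in 20 such groups. Plxna1 had 255.5 CPM in knockout-labelled library 4, against 281 to 286 CPM in the other 3. Plxna3 had 60.73 CPM in the same library, against 71.2 to 72.7 CPM. Sema4d had 49.61 CPM in wildtype library 1, while the remaining wildtype values were 47.4 to 47.7 CPM.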

How the results depend on the processing

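Sema5a stayed below 0 in every alternative run, from -0.34 to -0.16 on the log2 scale, and passed the threshold with DESeq2 alone (-0.30, adjusted p = 0.024). At a threshold of 0.1 the edgeR fit of the report still called no member, and 9 genes higher and 16 lower of all tested. Under that threshold would also fall Sema5a with no filter (adjusted p = 0.0829 by edgeR) and Nrp2 without knockout-labelled library 4 (0.0717). Nrp2, Plxnd1, Nrp1 and Sema3b also stayed below 0 and Sema5b above 0, none of them past the threshold. DESeq2 called 1 member lower, and 36 genes higher and 50 lower of all tested. Calls over all genes were 12 higher and 24 lower with no filter, 22 lower with limma-voom quality weights, 2 and 7 given the sex score, 0 and 7 given the stria score, 4 higher with the mesenchyme score, 14 higher with the neuron score, and 2 and 7 without wildtype libraries 1 and 3. Leaving out each library gave 2 to 7 higher and 8 to 20 lower. Separated members were 1 higher and 2 lower with upper quartile scaling (2.25% and 1.42% of all genes in that fit). They were 1 and 2 without wildtype libraries 1 and 3 (5.49% and 5.22%). Over the libraries left out, 0 to 2 were higher and 1 to 8 lower. The shares of all genes in those fits ran from 2.78% to 7.43% higher and from 2.24% to 5.97% lower. The members median log2 fold change was -0.0248 after upper quartile scaling, -4.95e-05 given the sex score, -0.0238 given the stria score and -0.0573 to -0.0114 over the libraries left out. The cause of these shifts was not tested.

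Some members, none called, changed sign, among them Sema3e (-0.12 in the report) and Sema4b (-0.12). Plxna4 was 0.0138 with upper quartile scaling and 0.0119 with the strict filter. With no filter Sema3a was -0.00271, Sema6b -0.0017 and Plxna3 -0.00259, with DESeq2 -0.00288, -0.00182 and -0.00275. With limma-voom Sema3a was -0.00275, Sema4a -0.00415, Sema6b -0.000943 and Plxna3 -0.000505, and with quality weights Sema3a was -0.00672, Sema4a -0.0772 and Plxna4 0.0111. With the sex score Sema3g was 0.0596, Sema4a -0.101, Sema6d 0.0371 and Plxna4 0.028. With the stria score Sema4a was -0.0238, Sema4b 0.00926, Sema6d 0.00584, Plxna2 -0.196, Plxna3 -0.00696 and Plxna4 0.0111. With the mesenchyme score Sema4b was 0.0388, Sema4c 0.0563, Sema6b -0.0991, Sema7a -0.0311, Plxna2 -0.185 and Plxna3 -0.0904. With the neuron score Sema3a was -0.00583 and Sema3e 0.0451. Without wildtype libraries 1 and 3 Sema4a was -0.0513, Sema4b 0.00519, Sema6b -0.0353, Sema7a -0.0756, Plxna2 -0.119 and Plxna3 -0.0247. Over the libraries left out, Sema3a ran from -0.0877 to 0.0885, Sema3e from -0.297 to 0.0127, Sema4a from -0.113 to 0.122, Sema4f from -0.00171 to 0.144, Sema6b from -0.0379 to 0.0677, Sema7a from -0.022 to 0.18, Plxna2 from -0.0573 to 0.111, Plxna3 from -0.025 to 0.0586 and Plxna4 from -0.0313 to 0.0132.

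The groups share replicate numbers, but same-numbered libraries did not deviate together (r = 0.208, 0.334, -0.414 and -0.198 for numbers 1 to 4, over 17053 genes, which are not independent), so the numbers were not taken as pairs. With the replicate block, 3 genes were called higher, Sema5a was -0.30 (adjusted p = 0.372 by edgeR), Sema3a -0.00125 and Sema4a -0.000358. Depth was lowest for Sema4a among the members (61 to 107 counts per library), and in the pathway list for Timd2 (1 to 8, untested), Rnd1 (5 to 36) and Cd72 (18 to 47).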
